A study of Mus musculus with 12 samples.

Results

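Oxidative phosphorylation subunits are the proteins that make up the respiratory chain and the ATP synthase of mitochondria. They were taken here as every probe set of the Affymetrix MG_U74Av2 array whose single gene symbol starts with Nduf, Sdh, Uqcr, Cox4 to Cox8 or Atp5, or is Cycs or Cyc1. This gave 101 of the 12488 probe sets on the array, for 73 genes. RNA was taken from normal intestine and from tumors of male Min/+ mice aged 91 days, a model in which 1 mutant copy of Apc gives rise to intestinal adenomas. The 12 arrays, all of Min/+ tissue, were 6 of normal intestine and 6 of tumor. In each tissue they covered 3 numbered diets, whose contents the labels do not give, each with 1 Dnmt+/+ and 1 Dnmt+/- array, the latter heterozygous for a DNA methyltransferase gene that the labels do not specify further. No label says that arrays came from separate animals, or how many tumors went into a sample. P-values therefore measure the spread between these samples, which may be partly technical.

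Complex I takes electrons from NADH and complex II from succinate, and both pass them to ubiquinone. Complex III moves them on to cytochrome c, complex IV passes them to oxygen, and complex V uses the resulting proton gradient to make ATP. Apart from a few subunits made inside mitochondria, the subunits are encoded in the nucleus, and enterocytes, the absorptive cells that line the villi, draw on this pathway for much of their energy.

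Some arrays stood apart from the rest. On the 4 arrays of diet #1 the deposited intensities were not scaled to a common level, and 40.9% to 46% of probe sets carried the value 50, so diet #1 cannot be told apart from its file format. The 2 normal arrays of diet #2 carried transcripts of exocrine pancreas: the mean log2 level of 8 pancreas probe sets was 14.41 and 14.58 there. The normal arrays of diets #1 and #3 had 7.15 to 7.81 and the tumor arrays 7.64 to 8.86. The epithelial marker list, 13 probe sets led by keratins and villus proteins, was bright on all arrays, with a mean log2 level of 11.66 to 12.19 in normal intestine and 12.21 to 12.39 in tumor. Of the 101 member probe sets, 76, for 65 genes, were bright enough to be tested, among 7454 in all. Their level below is the intensity after quantile normalization, which gives every array the same distribution of values.

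Most of the subunits tested were lower in tumor than in normal intestine, with lower members in each of the complexes. Of the 76 probe sets tested, 54 (71.1%) were lower in tumor by limma at an adjusted p under 0.05, where 16.5% of all probe sets tested were lower. None of the 76 was higher, while 17% of all probe sets were. The split over all probe sets, 1228 lower and 1269 higher, depended on the scaling: it was 1747 and 940 with median scaling and 824 and 1506 as deposited, with no member higher under either. The median difference was -0.39 on the log2 scale, a tumor level of 76.3% of normal, beside -0.01 over all probe sets. After quantile normalization the differences were small in size, with the 54 from 1.23-fold to 2.93-fold lower. Of these, 38 were lower by less than 1.5-fold and 1, Cox7a1, by more than 2-fold. The size also depended on the scaling. The member median was -0.72 with median scaling (all probe sets -0.10) and -0.49 as deposited (all probe sets 0.13). In bulk tissue, fewer cells of a type and less RNA per cell cannot be told apart.

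The direction was shared across samples more than its size was. Each diet and genotype gave 1 normal and 1 tumor array with the same sample code, which makes 6 pairs, and 55 of the 76 members (72.4%) were lower in tumor in all 6, as were 17.1% of all probe sets. For 28 of the 76 (36.8%), every tumor array was below every normal array, as for 4.78% of all probe sets. Complex II had the largest median difference at -0.74, with all 4 of its probe sets lower. Complex I followed with 22 of 28 lower (median -0.45), complex III with 8 of 9 (median -0.45), complex V with 13 of 19 (median -0.37) and complex IV with 5 of 13 (median -0.23). The single probe set of cytochrome c and 1 of 2 probe sets of complex I assembly factors were also lower.

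**Figure D1:**
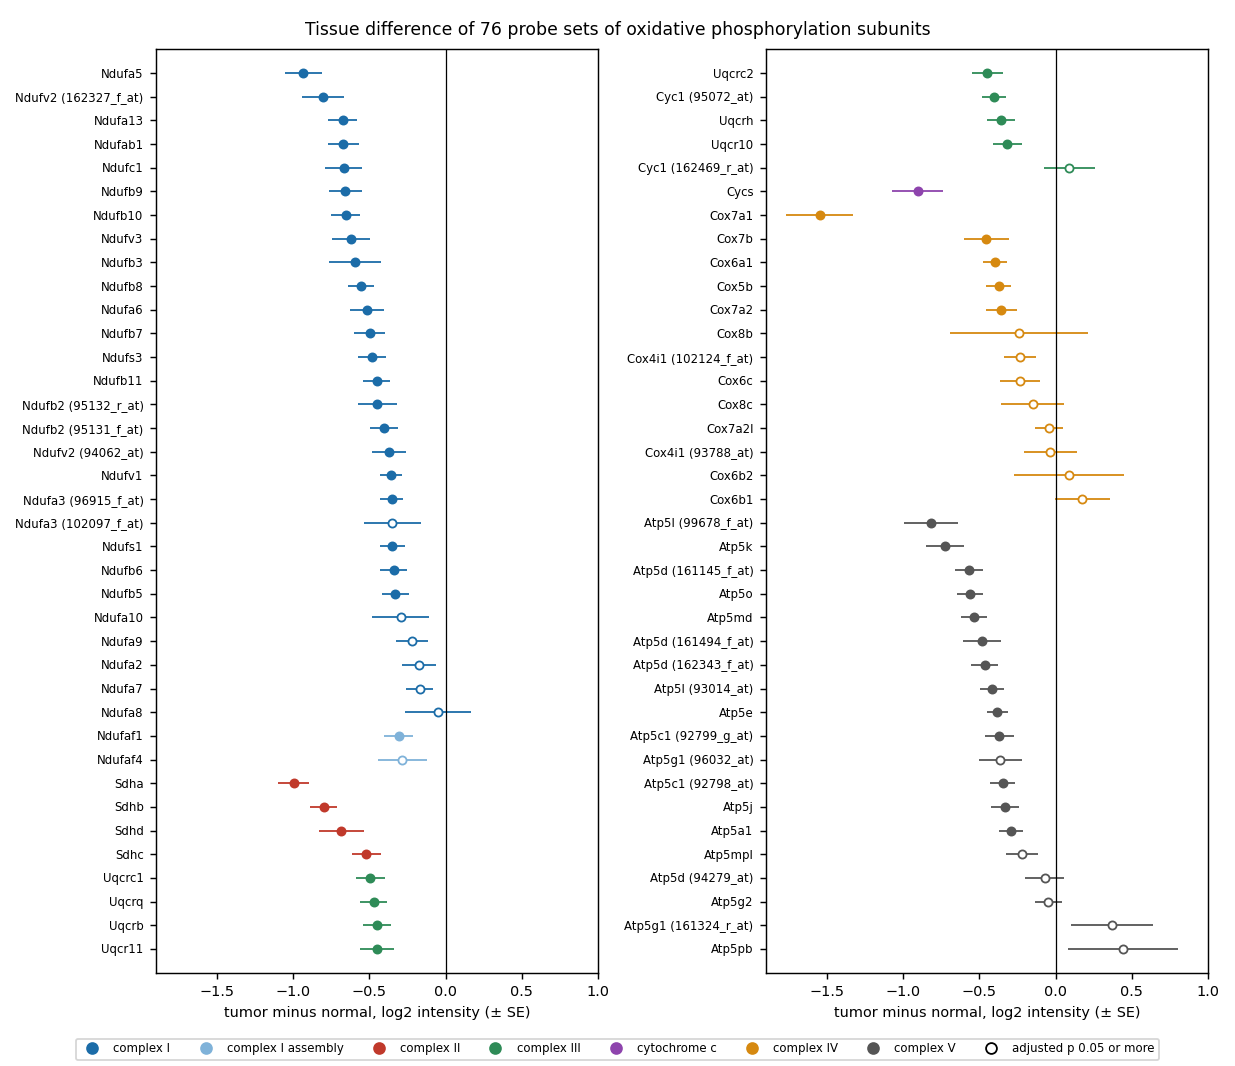
Tumor minus normal difference of each of the 76 tested probe sets on the log2 scale, with its SE, coloured by complex; filled points passed the limma test at an adjusted p under 0.05, and genes with several tested probe sets carry the probe set name. All 54 filled points lie below 0, with Cox7a1 at -1.55 farthest from it, and 5 of the 76 points lie above 0, none of them filled.

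Array by array, each of complexes I to V had a lower median in every tumor array than in any normal array. Taken against the mean of the 6 normal arrays, complex II had medians of -0.13 to 0.05 on normal arrays and -0.91 to -0.62 on tumor arrays. Complex I ranged from -0.21 to 0.19 on normal and from -0.59 to -0.43 on tumor arrays, with the 2 normal arrays of diet #1 the lowest of the normal arrays. The step was narrowest in complex IV, at -0.11 to 0.17 on normal and -0.34 to -0.18 on tumor arrays. The median over all probe sets, measured the same way, stayed between -0.05 and 0.07 on all 12 arrays. Quantile normalization holds this median near 0, so it is no separate check. Under the other scalings the tissue median over all probe sets was -0.10 (median scaling) and 0.13 (as deposited).

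**Figure D2:**
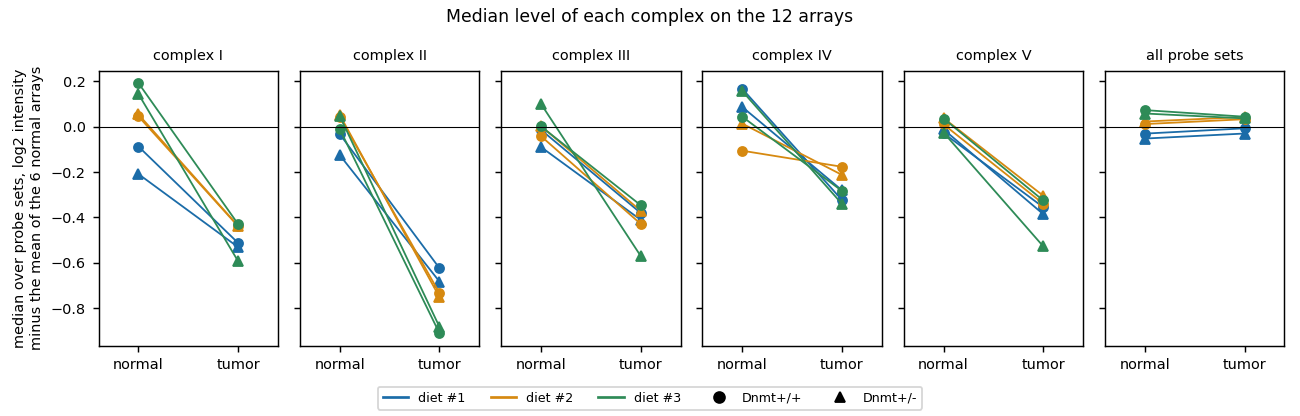
Median log2 intensity over the tested probe sets of each complex on each array, minus the mean of the 6 normal arrays, with lines joining the normal and tumor arrays of a sample code; colour is the diet number and the symbol the Dnmt genotype. Each complex is lower on all 6 tumor arrays than on all 6 normal arrays, and the median over all probe sets, drawn in the last panel, is not.

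The count depended on the arrays used more than the direction did. Without the 4 arrays of diet #1, 49 members were lower and none higher, where 15% of all probe sets were lower. Without the 4 arrays of diet #2, 28 were lower and none higher (10 of complex I, 3 of complex II, 3 of complex III, cytochrome c, 3 of complex IV and 8 of complex V), with a median of -0.43, where 9.58% of all probe sets were lower. Without the 2 normal arrays that carried pancreas transcripts, an alternative chosen after seeing the data, 36 were lower and none higher, where 11.9% of all were lower. Fitted within a diet on 4 arrays, limma called no member in diet #1 (median -0.32), 12 lower and 1 higher in diet #2 (median -0.35) and 4 lower in diet #3 (median -0.55). Of all probe sets 0.0537%, 7.77% and 4.15% were lower in these fits. The 1 higher was Cox6b2.

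Promoter sequences of 6 members are printed here. They were chosen because they had large tissue differences and because they differ in whether they hold known motifs of respiratory genes. RefSeq promoter windows (assembly GRCm38.p6, 250 bases before to 50 after the transcript start) matched 59 of the 73 genes with 64 windows. They held a median of 58.8% G and C, against 52.7% in all 32851 windows. The motifs, searched on both strands, were GCGCATGCG for the nuclear respiratory factor NRF1, CCGGAAG for ETS factors such as GABPA, AAGATGGC for YY1 and CAAGGTCA for estrogen-related receptors such as Esrra. In the lines printed after this paragraph, which read 5′ to 3′ along the gene, matches to these on either strand are in capitals. A match on the other strand appears as its reverse complement. Cycs (chr6:50566520-50566819, minus strand) carries an NRF1 match on the other strand. Atp5k (chr5:108434350-108434649, minus strand) carries an NRF1 match that reads on both strands and overlaps itself, and an ETS match on the other strand. Sdhb (chr4:140961021-140961320, plus strand) carries an ETS match, and Sdhd (chr9:50603800-50604099, minus strand) carries an ETS match and an estrogen-related receptor match, both on the other strand. Sdha (chr13:74350191-74350490, minus strand) and Cox7a1 (chr7:30183921-30184220, plus strand), with the largest differences of all members, hold none of these letters in the window. The windows of Ndufa5, with a difference of -0.93, also hold none and are not printed.
Cycs: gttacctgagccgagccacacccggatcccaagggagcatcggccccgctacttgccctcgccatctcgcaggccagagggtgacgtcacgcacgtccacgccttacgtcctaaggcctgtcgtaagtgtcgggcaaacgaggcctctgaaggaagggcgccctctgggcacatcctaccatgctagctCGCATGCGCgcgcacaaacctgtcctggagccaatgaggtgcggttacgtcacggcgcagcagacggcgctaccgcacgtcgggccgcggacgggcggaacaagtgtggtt
Atp5k: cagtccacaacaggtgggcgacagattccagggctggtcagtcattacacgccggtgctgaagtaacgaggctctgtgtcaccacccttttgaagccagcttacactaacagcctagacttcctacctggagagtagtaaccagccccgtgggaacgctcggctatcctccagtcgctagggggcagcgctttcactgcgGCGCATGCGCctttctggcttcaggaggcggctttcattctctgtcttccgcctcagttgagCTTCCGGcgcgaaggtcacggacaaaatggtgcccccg
Sdhb: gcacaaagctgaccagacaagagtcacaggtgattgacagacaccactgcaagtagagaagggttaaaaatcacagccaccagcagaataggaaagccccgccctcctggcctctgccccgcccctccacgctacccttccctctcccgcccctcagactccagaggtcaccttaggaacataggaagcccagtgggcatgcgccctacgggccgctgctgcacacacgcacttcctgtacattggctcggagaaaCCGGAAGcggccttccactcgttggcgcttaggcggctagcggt
Sdhd: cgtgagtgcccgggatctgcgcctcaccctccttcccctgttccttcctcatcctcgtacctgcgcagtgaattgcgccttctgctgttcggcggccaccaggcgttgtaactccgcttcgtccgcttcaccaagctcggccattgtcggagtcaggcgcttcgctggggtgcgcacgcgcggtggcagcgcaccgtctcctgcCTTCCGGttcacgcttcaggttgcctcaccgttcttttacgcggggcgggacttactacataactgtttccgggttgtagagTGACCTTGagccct
Sdha: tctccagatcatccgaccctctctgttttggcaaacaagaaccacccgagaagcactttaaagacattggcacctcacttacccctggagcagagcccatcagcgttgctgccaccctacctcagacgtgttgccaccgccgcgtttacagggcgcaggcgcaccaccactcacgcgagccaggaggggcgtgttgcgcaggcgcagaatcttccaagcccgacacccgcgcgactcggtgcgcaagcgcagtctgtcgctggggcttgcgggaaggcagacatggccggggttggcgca
Cox7a1: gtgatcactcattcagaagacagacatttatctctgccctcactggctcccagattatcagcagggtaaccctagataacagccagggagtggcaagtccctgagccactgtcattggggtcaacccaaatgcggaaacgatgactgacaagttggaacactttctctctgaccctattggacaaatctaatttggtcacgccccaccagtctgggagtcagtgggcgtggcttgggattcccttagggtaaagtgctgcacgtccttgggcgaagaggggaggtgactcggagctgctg

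The NRF1 letters were in 14.1% of the member windows and in 1.75% of all windows. The ETS letters were in 25% and 8.86%, those of YY1 in 12.5% and 2.75%, and those of estrogen-related receptors in 3.13% and 1.56%. At least 1 of these 4 motifs was in a window of 28 of the 59 matched genes, and the other genes held none. The letters of the TATA box (TATAAA), a motif of general promoters, were in 10.9% of member windows and 13.6% of all windows, CCAAT in 40.6% and 37.4%, and the E box CACGTG in 9.38% and 7.15%. Windows of genes with a lower probe set held the ETS letters in 14 of 44 cases and the NRF1 letters in 6 of 44. Windows of tested genes with no call held them in 1 of 13 and 3 of 13. A match of letters is a description and shows no binding. The member windows also held more G and C than all windows, and the part of this in the motif shares was not tested.

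Within complex I, all 5 probe sets of core subunits, which carry the electron path from NADH, were lower, with a median of -0.37. Of the accessory subunits, which surround the core, 17 of 23 were lower, with a median of -0.45. Ndufs1, the largest core subunit with iron-sulfur clusters, had an intensity of 2032 to 2720 in normal intestine (median 2160) and 1624 to 1872 in tumor (median 1814). The groups did not overlap, and the log2 difference was -0.35 ± 0.08 (limma adjusted p = 0.00965). Errors given after ± are SEs from the fit, with n = 6 arrays of each tissue. Ndufv1, the flavoprotein that binds NADH, differed by -0.36 ± 0.07 and Ndufs3, a core subunit near the ubiquinone site, by -0.48 ± 0.09. Ndufv2, an iron-sulfur partner of Ndufv1, had 2 tested probe sets. The dimmer ran from 477 to 937 in normal intestine (median 691) and from 305 to 426 in tumor (median 381), a difference of -0.80 ± 0.14 with no overlap. The brighter differed by -0.37 ± 0.11 (limma adjusted p = 0.0263) and did not pass when either diet #3 heterozygous array or the wild type diet #3 tumor array was left out (-0.42 to -0.29 over all 12 such fits).

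Ndufa5, an accessory subunit of the matrix arm, had the largest difference in complex I. Its intensity was 4203 to 7506 in normal intestine (median 5272) and 2409 to 3173 in tumor (median 3029). All tumor arrays lay below all normal arrays, and the difference was -0.93 ± 0.12, or 1.91-fold lower (limma adjusted p = 0.000458). The 2 normal arrays of diet #3 were the brightest, at 7506 and 7075. Ndufa13, also known as GRIM-19, ran from 1586 to 2297 in normal intestine (median 1902) and from 914 to 1349 in tumor (median 1269), 1.60-fold lower with no overlap. Ndufab1, the mitochondrial acyl carrier protein, had values of 2414 to 5697 (median 4599) and 1808 to 3493 (median 2509). Its groups overlapped through the dim diet #1 arrays, while each of the 6 pairs was lower in tumor, and the difference was -0.67 ± 0.10 (limma adjusted p = 0.00119). Of the Ndufb subunits, which lie in the membrane arm, every tested probe set was lower, from -0.66 ± 0.11 for Ndufb9 to -0.33 ± 0.09 for Ndufb5.

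Ndufa8, an accessory subunit on the intermembrane side, had the smallest difference in complex I. Its intensity was 579 to 2171 in normal intestine (median 2000) and 744 to 1699 in tumor (median 1550), and the difference was -0.05 ± 0.22 (limma adjusted p = 0.886). The pairs went both ways: the 2 of diet #1 were higher in tumor and the 4 of diets #2 and #3 lower. Without the diet #1 arrays the difference was -0.40 (limma adjusted p = 0.0262). Ndufa10, an accessory subunit of the membrane arm, gave 2418 to 2960 on the 4 arrays of diet #1 and 248 to 633 on the other 8, and its tissue difference of -0.30 ± 0.19 did not pass. The remaining members of the complex I group without a call, Ndufa2, Ndufa7, Ndufa9 and a second probe set of Ndufa3, differed by -0.35 to -0.17.

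Ndufaf1 and Ndufaf4 are assembly factors that help to build complex I and are not part of it. Ndufaf1 ran from 223 to 425 in normal intestine (median 360) and from 164 to 367 in tumor (median 321), overlapping between tissues but lower in tumor in all 6 pairs. Its difference of -0.31 ± 0.10 passed narrowly (limma adjusted p = 0.0345). Leaving out single arrays ended the call in 8 of 12 limma fits (largest adjusted p = 0.079), as did the sample code as a block in limma (adjusted p = 0.0547). Ndufaf4, at -0.29 ± 0.16, was not called (limma adjusted p = 0.207). Without the diet #1 arrays it differed by -0.52 (limma adjusted p = 0.0198).

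Complex II, or succinate dehydrogenase, is also an enzyme of the citric acid cycle, and all 4 of its subunits were lower. Sdha, the flavoprotein that oxidises succinate, had an intensity of 1321 to 2266 in normal intestine (median 1763) and 729 to 1053 in tumor (median 839). Every tumor array was below every normal array, and the fall was 2.00-fold with an SE of 0.10 on the log2 scale (limma adjusted p = 0.000126, the smallest of the members). Sdhb, which carries the iron-sulfur clusters, ran from 7372 to 9074 (median 8007) and from 4176 to 5071 (median 4684), again with no overlap. It was 1.74-fold lower (-0.80 ± 0.09, limma adjusted p = 0.000205).

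The membrane anchors of complex II, Sdhc and Sdhd, hold the haem and the ubiquinone site. Sdhd had values of 7506 to 11559 in normal intestine (median 9351) and 4256 to 7603 in tumor (median 5780). Its groups touched, since the wild type tumor array of diet #1 was brighter than the heterozygous normal array of the same diet, and the difference was -0.68 ± 0.15. Sdhc had the smallest difference of the complex at -0.52 ± 0.09, with values of 5554 to 6501 and 3424 to 5025 that did not overlap. Without the diet #2 arrays Sdhd did not pass (-0.60, limma adjusted p = 0.0905), and the other members of complex II did.

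In complex III, the largest differences were in Uqcrc1, Uqcrq and Uqcrb. Uqcrc1, a core protein on the matrix side, ran from 6826 to 11018 in normal intestine (median 8363) and from 5055 to 7296 in tumor (median 6401). The groups overlapped because levels differed between diets, with all 6 pairs lower in tumor (-0.49 ± 0.09, limma adjusted p = 0.00353). Uqcrq, a small subunit of the membrane part, was 11664 to 14488 (median 13772) in normal and 8387 to 10180 (median 9904) in tumor, with no overlap and a difference of -0.47 ± 0.09. Uqcrb, which lies near the ubiquinone site, ran from 5464 to 7421 (median 5746) and from 4011 to 4956 (median 4440), again with no overlap (-0.45 ± 0.09). Uqcrh, the hinge protein that helps cytochrome c to dock, differed by -0.36 ± 0.09 and Uqcr10 by -0.32 ± 0.10, the latter losing its call in 5 of 12 fits with 1 array omitted and with the sample code as a block.

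Cyc1, the haem protein that hands electrons to cytochrome c, was measured by 2 probe sets that did not give the same result. One had 14561 to 18157 in normal intestine (median 16518) and 11230 to 14183 in tumor (median 12039), with no overlap and a difference of -0.40 ± 0.08 (limma adjusted p = 0.00417). The other, whose name marks probes chosen under relaxed rules, had 1435 to 3505 (median 2005) and 1597 to 3984 (median 2163), a difference of 0.09 ± 0.17 that did not pass. It was lower in tumor in 1 of 6 pairs. Cytochrome c itself, Cycs, the soluble carrier between complexes III and IV that also acts in apoptosis, was 1.87-fold lower. Its intensity was 1261 to 2372 in normal intestine (median 1551) and 677 to 1070 in tumor (median 875), with no overlap (-0.91 ± 0.17, limma adjusted p = 0.00285).

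Complex IV had the largest single difference and the smallest share of called members. Several of its uncalled probe sets were dim, among them those of Cox6b1, Cox6b2 and Cox8b, while those of Cox6c and Cox7a2l were bright. Cox7a1, the form of subunit VIIa best known from heart and skeletal muscle, was 1248 to 2703 in normal intestine (median 2025) and 451 to 834 in tumor (median 714). All tumor arrays lay below all normal arrays, and the fall was 2.93-fold (-1.55 ± 0.22, limma adjusted p = 0.000771). The heterozygous normal array of diet #1 was the dimmest normal array, and both normal arrays of diet #3 were the brightest, at 2568 and 2703. Cox7a2, the form found in most tissues, ran from 7780 to 12939 (median 11335) and from 6881 to 9681 (median 8257), overlapping but lower in all 6 pairs. Its difference of -0.36 ± 0.10 was lost in limma when any 1 of the 4 arrays of diet #3 was omitted (largest adjusted p = 0.0554). Cox7a2l, a relative that joins complexes III and IV into supercomplexes, had 2381 to 3397 (median 2852) and 2329 to 3654 (median 2588), a difference of -0.04 ± 0.09 (limma adjusted p = 0.760). With median scaling in place of quantile normalization, under which the median of all probe sets was -0.10, Cox7a2l differed by -0.30 and passed (limma adjusted p = 0.0363).

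Cox7a1 transcripts are also known from fat and muscle, and markers of these tissues were measured beside it. Of all probe sets tested, 16.5% were lower in tumor. Of 5 adipocyte probe sets, 4 were lower in tumor, with a mean log2 level of 7.60 to 8.83 on normal and 6.72 to 7.42 on tumor arrays, and Adipoq at 78.1 to 473 and 47.4 to 115 in intensity. Of 8 smooth muscle probe sets 1, Mylk, was lower (mean log2 level 10.06 to 10.72 and 10.10 to 10.65). Of 6 striated muscle probe sets none passed limma (7.46 to 8.44 and 7.21 to 8.04), and Acta1 differed by -1.59 (adjusted p = 0.0842). Of 2 tested probe sets listed for brown fat 1, Ppara, was lower (list mean 7.97 to 8.51 and 7.33 to 8.12). The same Ppara probe set is also counted among the regulators of mitochondrial genes below, so it is not particular to brown fat here. The other, Dio2, differed by -0.44 and was not called (limma adjusted p = 0.260). The part of these cells in the Cox7a1 difference was not tested.

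Among the other called members of complex IV, Cox6a1, the form of subunit VIa in most tissues, ran from 17998 to 22368 in normal intestine (median 19908) and from 14309 to 15386 in tumor (median 15066). The groups did not overlap (-0.40 ± 0.08, limma adjusted p = 0.00421). Cox5b, a zinc-binding subunit, differed by -0.37 ± 0.08. Cox7b had 3946 to 7296 (median 6951) and 3375 to 5908 (median 3994), overlapping, with a difference of -0.46 ± 0.15 that passed narrowly (limma adjusted p = 0.0411). Leaving out single arrays ended the call in 9 of 12 limma fits (-0.54 to -0.33, largest adjusted p = 0.0946), as did the sample code as a block in limma (adjusted p = 0.0502).

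The remaining 8 tested probe sets of complex IV had no call. Cox4i1, the common form of the largest nuclear-encoded subunit, had 486 to 1300 in normal intestine (median 574) and 378 to 1138 in tumor (median 487) by 1 probe set. That probe set was lower in all 6 pairs and differed by -0.23 ± 0.10 (limma adjusted p = 0.112), with the 4 arrays of diet #1 the brightest of their tissues. A second differed by -0.03 ± 0.17. Cox6c differed by -0.23 ± 0.13, Cox8c, known from testis, by -0.15 ± 0.21 and Cox8b, a muscle form with 3 of 12 arrays at a floor, by -0.24 ± 0.46. Cox6b1, which bridges the monomers of the enzyme dimer, had 90.4 to 208 (median 173) and 128 to 241 (median 176), a difference of 0.17 ± 0.18. Cox6b2, its testis relative, had 83.9 to 1219 (median 320) and 182 to 578 (median 252). The normal arrays of diet #2 were its dimmest and those of diet #1 its brightest, and within diet #2 it was higher in tumor by 1.52 (limma adjusted p = 0.0237), where over all arrays the difference was 0.09 ± 0.36.

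In complex V, the catalytic head and its central stalk had 7 of 8 probe sets lower (median -0.38), and the membrane and dimer subunits 4 of 5 (median -0.54). The peripheral stalk had 2 of 3 lower (median -0.33), and of 3 probe sets of the c ring, the rotor that the protons turn, none was called (median -0.05). Atp5l, subunit g of the membrane part, had the largest difference by a dim probe set with 162 to 1200 in normal intestine (median 197) and 95 to 931 in tumor (median 119). The 4 diet #1 arrays were far brighter than the rest, and all 6 pairs were lower in tumor (-0.82 ± 0.18). The brighter probe set of Atp5l, with 10872 to 13774 (median 12730) and 8601 to 10151 (median 9321), did not overlap between tissues and differed by -0.42 ± 0.08 (limma adjusted p = 0.00374).

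Atp5k, subunit e, which holds ATP synthase dimers together, was 576 to 647 in normal intestine (median 636) and 317 to 558 in tumor (median 359). All tumor arrays were below the normal ones, the heterozygous tumor of diet #2 being the closest (-0.73 ± 0.12, limma adjusted p = 0.00214). Atp5d, the delta subunit of the central stalk, had 3 probe sets that were lower, by -0.57 ± 0.09, -0.48 ± 0.12 and -0.47 ± 0.09. The largest of these ran from 1485 to 2198 (median 1807) and from 1076 to 1423 (median 1174) with no overlap. A dim probe set of Atp5d differed by -0.07 ± 0.13 and did not pass. Atp5a1, the alpha subunit of the head, differed by -0.29 ± 0.08, Atp5c1, the gamma shaft, by -0.37 ± 0.09 and -0.35 ± 0.08, and Atp5o, which ties the head to the peripheral stalk, by -0.56 ± 0.08. Atp5md, a small membrane subunit, differed by -0.54 ± 0.08.

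In the c ring no probe set was called. Atp5g2, which encodes the c subunit in most tissues, had 967 to 1065 in normal intestine (median 1018) and 874 to 1175 in tumor (median 971). The groups overlapped and the difference was -0.05 ± 0.09 (limma adjusted p = 0.712). Atp5g1, another gene for the same protein, had 141 to 232 (median 152) and 89.9 to 210 (median 120) by 1 probe set, lower in all 6 pairs without passing (-0.36 ± 0.14, limma adjusted p = 0.0761). With the sample code as a block the same difference passed (limma adjusted p = 0.0335). A second probe set of Atp5g1 had 4 of 12 arrays at a floor and differed by 0.37 ± 0.27. Atp5pb, subunit b of the peripheral stalk, had 50.2 to 493 (median 173) and 118 to 600 (median 205) and differed by 0.44 ± 0.36 (limma adjusted p = 0.381), the largest positive value among the members.

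**Figure D3:**
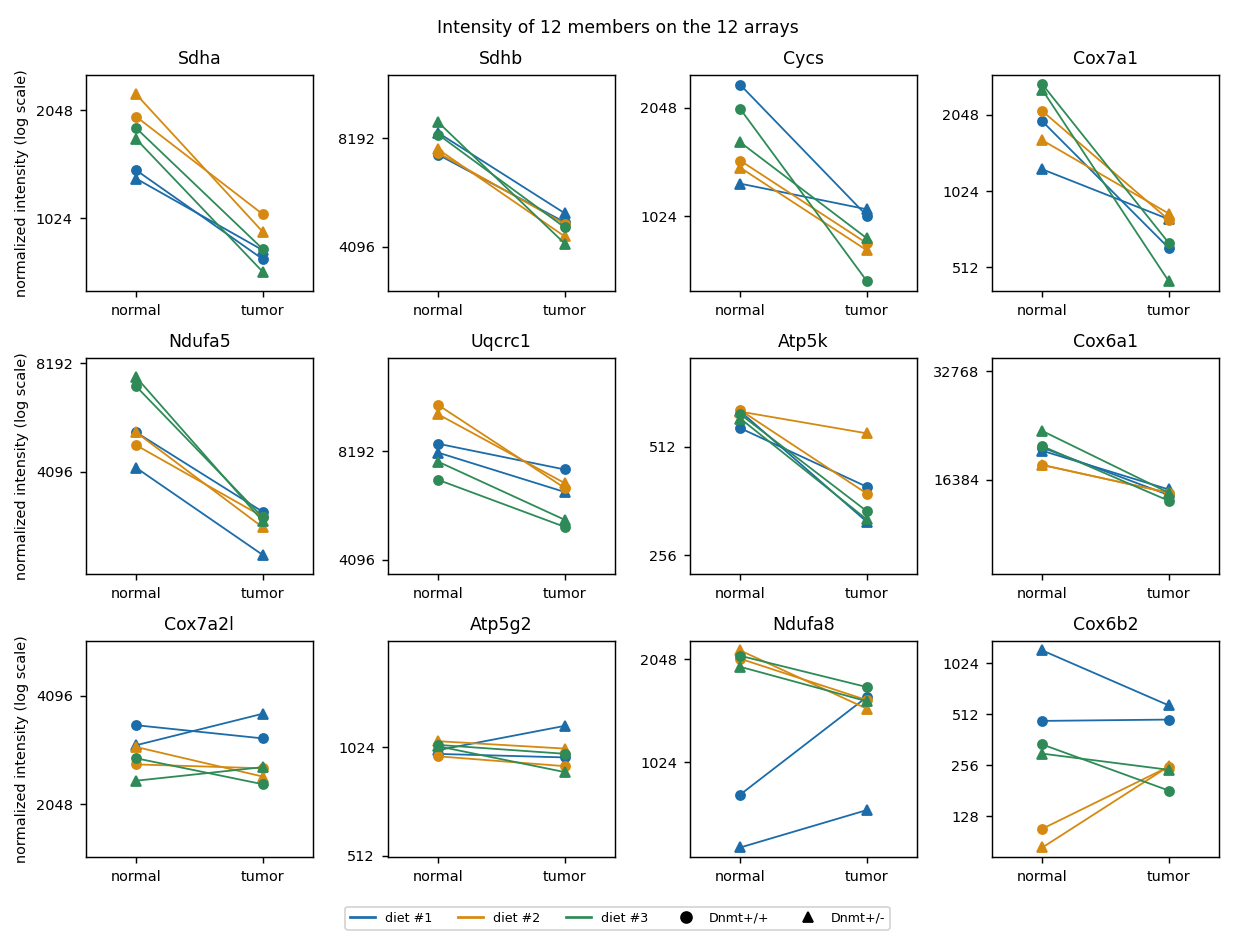
Quantile-normalized intensity of 12 members on each array, on log axes that differ in range between panels, with lines joining the normal and tumor arrays of a sample code; colour is the diet number and the symbol the Dnmt genotype. In the panels of Sdha, Sdhb, Cycs, Cox7a1, Ndufa5, Atp5k and Cox6a1 all tumor points lie below all normal points, Uqcrc1 overlaps between diets, and Cox7a2l, Atp5g2, Ndufa8 and Cox6b2 show no call.

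Of the 65 genes tested, 48 had at least 1 probe set lower in tumor. Of 9 genes with several tested probe sets, 3 had both a called and an uncalled one: Atp5d, Cyc1 and Ndufa3. In each of the 3 the uncalled probe set was the dimmest, and in Ndufa3 the differences were alike (-0.35 both). Affymetrix marks some probe sets with a letter, such as f for probes shared within a sequence family. Among the members, 17 of 26 tested probe sets with a letter and 37 of 50 without were lower, with medians of -0.39 each. The letters were not alike: 12 of 17 probe sets with f were lower (median -0.40). Of those with r, for probes chosen under relaxed rules, 1 of 5 was lower (median 0.09). The members were bright as a group: 58 of the 76 had a mean intensity over 1059, as the brightest 25% of tested probe sets did, and 50 of these 58 were lower, where 26.4% of all such probe sets were. Of the 12 members in the dimmer 50% of tested probe sets, 2 were lower, beside 10.8% of all probe sets there.

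Of the members, 25 probe sets were too dim to test, and 8 genes had no other probe set, so that nothing is said of their tissue difference: Cox5a, Cox8a, Cox6a2, Ndufa1, Ndufa12, Ndufc2, Ndufs4 and Atp5j2. Cox6a2 and Cox8a, the muscle and common forms of their subunits, reached at most 78.1 and 108 on any array. For 5 of the 25 all 12 arrays were at a floor. Uqcrfs1, the Rieske protein of complex III, and Atp5b, the catalytic beta subunit, had no probe set among the members and were not analysed here.

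Dnmt+/- and Dnmt+/+ arrays were compared across both tissues and all diets, and no member was called. By limma none of the 76 passed, beside 0.0134% of all probe sets (1 of 7454), and at an unadjusted p under 0.05 there was 1 of 76 (1.32%) beside 4.45%. The differences of the members ran from -0.39 to 0.39 with a median of -0.02, where a median SE of 0.10 was reached. The 1 member was Ndufab1, at -0.26 ± 0.10 in heterozygous minus wild type arrays (limma adjusted p = 0.914). The dim probe set of Atp5l (-0.39 ± 0.18) and Cox6b1 (0.39 ± 0.18) came next. The tissue difference was close to the same size in both genotypes, with a median over the members of -0.40 in Dnmt+/+ and -0.38 in Dnmt+/- arrays. The test of that difference, tissue by genotype, called none of the 76 members, beside 0% of all probe sets, and none had an unadjusted limma p under 0.05, beside 2.87% of all. Cycs differed between tissues by -1.18 in Dnmt+/+ and -0.63 in Dnmt+/- arrays (interaction 0.56 ± 0.29, limma adjusted p = 0.999). The interaction was -0.61 ± 0.29 for the Cyc1 probe set without a tissue call and -0.43 ± 0.28 for Cox7b, neither called.

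Diets #2 and #3 differed in 2 of the 76 members by limma, beside 4.43% of all probe sets (330 of 7454). Both are subunits of complex III, and they went in opposite directions. Uqcrc2, the second core protein, had 7938 and 7878 on the normal arrays of diet #3 against 5451 and 5055 on those of diet #2, and 6038 and 5173 against 3657 and 3143 on the tumor arrays. It was higher in diet #3 by 0.66 ± 0.13 (n = 4 arrays per diet, limma adjusted p = 0.0249). Uqcr11, a small subunit, had 3573 and 3675 on the normal arrays of diet #3 against 5189 and 5272 on those of diet #2, and 2384 and 2131 against 4342 and 3645 on the tumor arrays. It was lower in diet #3 (-0.67 ± 0.13, limma adjusted p = 0.0281). A probe set of Atp5d came next, at -0.43 ± 0.11 (limma adjusted p = 0.0524). Neither Uqcrc2 nor Uqcr11 overlapped between these diets within a tissue. At an unadjusted p under 0.05, 15 members (19.7%) passed, beside 21.6% of all probe sets. These calls rest on few arrays. Without the 2 normal arrays of diet #2 that carried pancreas transcripts no member passed. None passed when any 1 of the 8 arrays of diets #2 and #3 was omitted. With the sample code as a block 7 members passed, a count given here without the share of all probe sets in that fit.

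The tissue difference was larger in diet #3 than in the other diets as a value, and the test of it did not pass. Over the members its median was -0.30 in diet #1, -0.36 in diet #2 and -0.54 in diet #3, and the pair medians were -0.58 and -0.48 in diet #3 against -0.40 to -0.28 in the others. The interaction of tissue with diet #3 against #2 had a median of -0.18 over the members and -0.03 over all probe sets. By limma it called none of the 76 members, beside 0.322% of all probe sets (24 of 7454), and 7 members (9.21%) beside 9.55% of all had an unadjusted p under 0.05. Ndufb3, a membrane arm subunit of complex I, differed between tissues by -0.35 in diet #2 and -1.21 in diet #3 (interaction -0.86 ± 0.23, limma adjusted p = 0.328). Over all arrays Ndufb3 ran from 3523 to 4720 in normal intestine (median 3780) and from 1569 to 4159 in tumor (median 2915), with the 2 tumor arrays of diet #3 the lowest. Its tissue difference of -0.60 ± 0.17 was lost in 5 of 12 limma fits with 1 array omitted (largest adjusted p = 0.0591). Cox7a1 differed by -1.19 in diet #2 and -2.30 in diet #3 (interaction -1.10 ± 0.36, limma adjusted p = 0.385). For Cox6b2 the differences were 1.4 and -0.61 (interaction -2.01 ± 0.54, limma adjusted p = 0.322), the largest in size of the members.

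**Figure D4:**
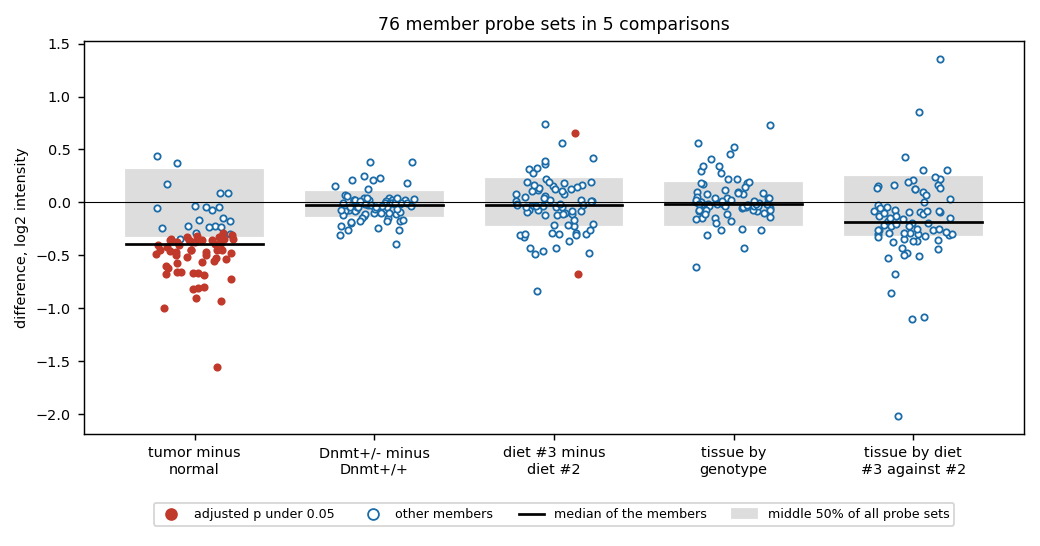
Differences of the 76 member probe sets (points) in 5 comparisons on the log2 scale, with the median of the members as a line and the middle 50% of all 7454 probe sets as a grey box; filled points passed limma at an adjusted p under 0.05. The median of the members lies below the grey box in the tissue comparison, with 54 filled points, and within it in the other 4, where 2 points in the diet comparison are filled.

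Levels on diet #1 arrays are given as values only. The difference of diet #1 from the mean of the other diets had a median of -0.04 over the 76 members and passed 1 in size on the log2 scale for 8 of them, 5 higher and 3 lower. The highest were Ndufa10 (2.70) and the dim probe set of Atp5l (2.51). Of the 3 lower, Ndufa8 was at -1.05. The other two, a probe set each of Atp5g1 and Cox8b, had diet #1 arrays at the floor, so that their differences are only bounds.

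Other mitochondrial lists were described in the same way, by counts and medians. Their counts stand beside 16.5% lower and 17% higher among all probe sets tested. Of 20 tested probe sets of the citric acid cycle and pyruvate dehydrogenase, which feed the respiratory chain with electrons, 16 were lower and none higher, with a median of -0.52. Dlst, a part of the 2-oxoglutarate dehydrogenase complex, differed by -1.03 ± 0.15 and -0.97 ± 0.09 by its probe sets, and Ogdh, its catalytic partner, by -0.90 ± 0.10 (5919 to 6754 in normal intestine, 2532 to 4000 in tumor, no overlap). Citrate synthase, Cs, differed by -0.18 ± 0.09 and did not pass. Of 8 probe sets for other routes of electrons into ubiquinone 3 were lower (median -0.38): Gpd2, a glycerol phosphate dehydrogenase (-0.83 ± 0.12), Etfdh (-0.73 ± 0.14) and Etfa (-0.47 ± 0.10), which serve fatty acid oxidation.

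Regulators of mitochondrial genes had 7 of 12 probe sets lower, 1 higher and a median of -0.45, where 16.5% of all probe sets tested were lower. Esrra enters this count by both of its probe sets. The largest differences were in Polg2 (-1.65 ± 0.36) and Sirt3 (-1.50 ± 0.29), each in part at the floor. Esrra, a nuclear receptor that drives respiratory genes, had 3707 to 4051 in normal intestine (median 3793) and 2030 to 2803 in tumor (median 2377). The groups did not overlap, and the difference was -0.66 ± 0.09 (limma adjusted p = 0.000607), with -0.63 ± 0.12 by a second probe set. Ppargc1a, its coactivator, ran from 48.9 to 420 (median 255) and from 44.8 to 92.4 (median 82.1), in part at the floor, with a difference of -1.45 ± 0.25. Of the factors whose motifs were searched, Gabpa (-0.40 ± 0.15, limma adjusted p = 0.0672), its partner Gabpb1 (0.04 ± 0.10) and Yy1 (0.15 ± 0.11) were not called. No probe set of Nrf1 was among the 12 tested. Ssbp1, which coats single-stranded mitochondrial DNA, was the 1 higher (0.68 ± 0.10).

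Carriers, porins and inner membrane proteins had 8 of 17 probe sets lower and 1 higher (median -0.34). The exchangers of ADP and ATP went opposite ways: Slc25a5 was lower by 2 of 3 probe sets (-0.76 ± 0.15 and -0.71 ± 0.19), and Slc25a4, the form known from muscle, was higher (0.79 ± 0.11). Assembly factors outside the members had 6 of 15 lower, none higher and a median of -0.09. The last lists had medians near that of all probe sets, and their shares of lower probe sets were no larger than the 16.5% over all. Protein import and chaperones had 3 of 24 lower and 2 higher (median -0.03), with Tomm20, an import receptor, higher (0.70 ± 0.18). Mitochondrial ribosomal proteins had 9 of 65 lower and 2 higher (median -0.02), led by Mrps36 (-0.72 ± 0.09), which is also known as a subunit of the 2-oxoglutarate dehydrogenase complex. No probe set of a subunit encoded in mitochondrial DNA was found by the list's symbols.

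**Figure D5:**
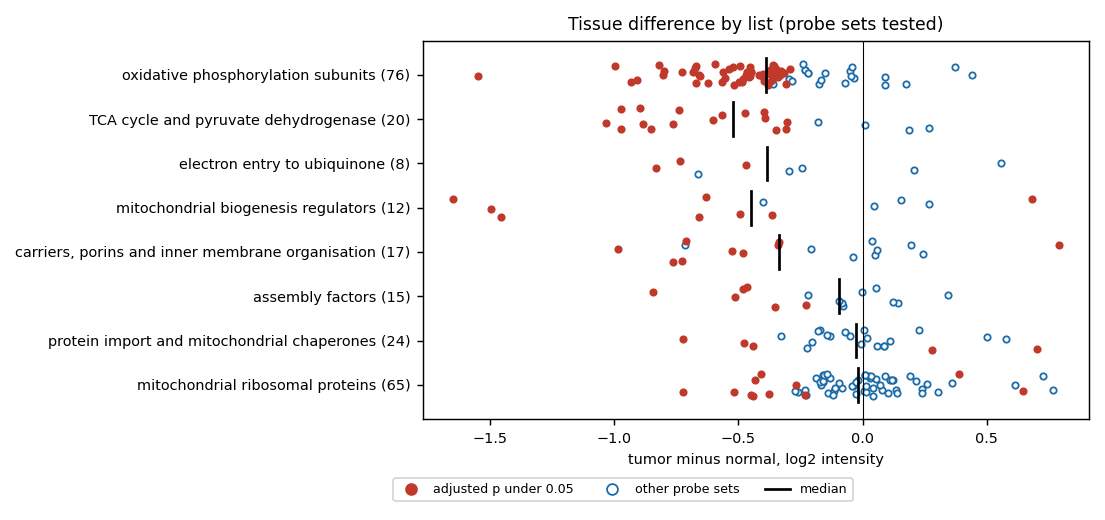
Tumor minus normal difference on the log2 scale of each tested probe set of the oxidative phosphorylation subunits and of 7 other mitochondrial lists, with the number of probe sets in brackets and the median as a vertical line; filled points passed limma at an adjusted p under 0.05. The subunits, the citric acid cycle and the regulators have medians of -0.39, -0.52 and -0.45, and the import and ribosomal lists of -0.03 and -0.02.

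Cell type markers were measured beside these results. Of all probe sets tested, 16.5% were lower in tumor and 17% higher. In the epithelial list 4 of 13 probe sets were higher in tumor and 1, Fabp1, was lower. Krt18 was among the higher, with 1043 to 1689 in normal intestine and 6776 to 9411 in tumor. In the enterocyte list 3 of 11 were lower (Slc2a5, Mttp and Lct) and 2 higher (Mep1a and Anpep). The mean log2 level of this list was 11.11 to 12.56 on normal and 11.13 to 11.90 on tumor arrays. By sample code it was lower in tumor in diet #1 (12.56 to 11.90 and 11.84 to 11.78) and in diet #3 (12.06 to 11.13 and 11.98 to 11.44). In diet #2, whose normal arrays carried pancreas transcripts, it was higher in tumor (11.11 to 11.28 and 11.23 to 11.67). In the fibroblast list 7 of 13 were higher and 3 lower (9.29 to 9.79 and 9.65 to 10). The part of a changed cell makeup in the subunit differences was not tested.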

How the data were processed

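RNA of 6 normal intestine and 6 tumor samples was measured on 1-colour Affymetrix MG_U74Av2 arrays. The deposited values are one linear intensity per probe set, as the authors summarised them, with software not given in the sources used here. Per the deposited values, the 4 arrays of diet #1 have a lower limit of 50 and no common scale, and the other 8 have a mean of 1000 each. Gene symbols came from GEO's platform annotation, and all 101 members matched a RefSeq gene. Of the probe sets that are no controls, 10833 had 1 symbol, 396 several and 1193 none.

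After removal of 66 controls, values were quantile normalized, raised to a floor of 44.8 (the 20th percentile) and taken to log2, and the 40% of probe sets with the lowest mean were left out. limma 3.58.1 in R 4.3.3 fitted tissue, diet and genotype over all 12 arrays (lmFit, eBayes), with Benjamini-Hochberg adjustment over all 7454 probe sets and a threshold of 0.05; interactions were added terms. The scripts were tested on simulated data. Each probe set is its own feature, since probe sets of a gene can bind different transcripts. The number of arrays limits the precision. The highest correlation between arrays was 0.981, so none was counted as a copy of another.

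The titles give a normal and a tumor array the same sample code. After subtraction of each tissue's mean, the arrays of a code correlated at 0.48 to 0.68 in all 6 codes. This cannot show that a code pairs samples, since arrays of a code also share their diet and genotype. With diet and genotype also removed the correlations were -0.56 to -0.38, and the code as a random block had a correlation of -0.15. The negative values cannot show that codes are unpaired either. Each code is 1 diet and genotype, and removing these takes out most variation between codes, which pulls such correlations below 0. The fit with the code as a block is an alternative.

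Members and lists were chosen with earlier results of these data known. Values are printed for the 3 called members with the largest difference and the 1 with the smallest in each complex, for tissue-type isoforms, for the catalytic or carrier subunits, and for the 3 members of smallest p in the other comparisons; other members are named by their difference. Alternatives covered scaling, floor, filter, probe set choice, variance model, block, diets, genotypes and single arrays.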

Additional observations from a re-analysis of the deposited data

Results flagged for a closer look

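Among the named members, 76 groups of 6 arrays were examined for an array far from the others of its tissue, and 5 held one. Chance gives about 1 in 20 such groups. In tumor, the heterozygous array of diet #1 was the lowest for Ndufa5, at 2409 with the next array at 2874, and for Ndufa8, at 744 with the next at 1469. The heterozygous tumor array of diet #3 was the lowest for Uqcrq, at 8387 with the next at 9516. In normal intestine, the wild type array of diet #3 was the lowest for Cox6b1, at 90.4 with the next at 157. The heterozygous normal array of diet #1 was the highest for a probe set of Atp5g1, at 232 with the next at 161.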

How the results depend on the processing

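The 54 members called lower in tumor were 60 under median scaling (member median -0.72, all probe sets -0.10) and 51 with values as deposited (member median -0.49, all 0.13), and no member was called higher under either. Over all probe sets the split of lower against higher calls was 1228 against 1269, 1747 against 940 with median scaling and 824 against 1506 as deposited. The count was 28 without diet #2. Counting calls in either direction within single diets or genotypes, on 4 or 6 arrays, it was 0 in diet #1, 13 in diet #2 (12 lower), 4 in diet #3, 2 in wild type and 0 in heterozygous arrays. Leaving out each array in turn gave 45 to 55, and 45 of the 54 kept their call in all 12 such fits, while 27 of the 54 kept it in all 12 other alternatives. With the sample code as a replicate block it was 52: Ndufaf1, Cox7b and Uqcr10 were lost and Atp5g1 gained. Without diet #2, Sdhd, Uqcrc1 (-0.40, limma adjusted p = 0.0657) and Ndufs1 (-0.28, limma adjusted p = 0.121) were among those lost. Sdha, Cox7a1, Cycs, Ndufa5 and Atp5k were called in all 12 alternatives that used both genotypes and at least 2 diets. For diet #3 against #2, the 2 calls became 0 as deposited, 4 with the floor at the 40th percentile and 8 with no filter. They became 7 with the lowest 60% left out, 8 with trended robust variances and 7 with the replicate block. The count was 0 without the normal arrays of diet #2 and 0 to 2 with an array omitted. The shares over all probe sets in these fits are not given here, so these diet counts show only that the calls depend on the settings. By limma no member was called for genotype or either interaction in any alternative run. Values near the floor have no order, which limits the dim members.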

Other observations

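Further probe sets carry a subunit symbol beside that of a pseudogene or a close relative, so their signal cannot be given to 1 gene, and these 10 were not counted above. Of the 9 that could be tested, 5 were lower in tumor by limma and none higher, beside 16.5% and 17% of all probe sets. The probe set shared by Ndufa11 and Ndufa11b, of the complex I membrane arm, ran from 2846 to 3557 in normal intestine and from 1967 to 2612 in tumor, with a difference of -0.59 ± 0.09. That of Ndufs5 and its pseudogene differed by -0.48 ± 0.10 and that of Atp5c1 and its pseudogene by -0.48 ± 0.07. The 2 probe sets shared by Cox7c, a small subunit of complex IV, and Gm12338 differed by -0.05 ± 0.09 and -0.14 ± 0.14, neither of them called.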
